A study of Mus musculus with 34 samples.

Results

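The genes described here belong to the nuclear part of the mitochondrial respiratory chain. They were chosen by name, as the protein-coding genes of the GENCODE M21 annotation on the standard chromosomes whose symbols begin with Nduf, Uqcr, Atp5 or Cox4 to Cox8, together with Sdha, Sdhb, Sdhc and Sdhd. The rule found 94 genes of the 21938 protein-coding genes of mouse genome build mm10, with 93 different symbols, since Atp5o has 2 gene records. Trimethylation of lysine 4 on histone H3 (H3K4me3) was measured at their 5′ ends by CUT&RUN, in which an antibody brings protein A fused to micrococcal nuclease to the histone mark and the released DNA fragments are sequenced. The cells were scraped from villi of the small intestine of mice of the C57BL/6J background, and 2 libraries were made from wild-type and 2 from ApcMin/+ mice. The study's methods name 2 mice of each genotype at this age, and the labels do not tie a library to a mouse. The p-values below measure the spread between these libraries. ApcMin/+ mice carry 1 mutant germline allele of the Wnt pathway inhibitor Apc in all their cells, so the genotype is not restricted to the epithelium, and they develop intestinal tumors. The sample labels give an age of 5 weeks, whereas the study's text gives 6 weeks, and they name no treatment of the animals. The question the comparison addresses is whether this promoter mark differs in normal-appearing intestinal cells that carry the mutant allele.

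The respiratory chain passes electrons from NADH and succinate to oxygen through complexes I to IV and uses the proton gradient that results to make ATP at complex V. Most subunits are encoded in the nucleus and imported, and only a small core is encoded by mitochondrial DNA. Absorptive cells of the villus are rich in mitochondria and use this ATP for nutrient transport. H3K4me3 lies on the nucleosomes that flank the starts of genes in use, and is widest and highest at CpG-rich promoters. Genes of the chain are known for compact CpG-rich promoters bound by NRF1, GABPA, YY1 and the estrogen-related receptors, and several subunits have an isoform gene reserved for muscle, testis or lung.

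The value of a gene is the mean signal within 1000 bp on each side of its annotated 5′ end, in tags normalized to 10000000 per library, so the windows are equally long and levels can be set side by side. The libraries hold between 1430000 tags (wild-type replicate 1) and 5470000 tags (ApcMin/+ replicate 2). ApcMin/+ replicate 1 stood apart from the other libraries, with 43.3% of its signal in enriched regions against 11.9% to 22.6%, and its mean over all promoters was 6.85 against 1.76 to 2.59. The enriched regions were called on the mean of the 4 tracks, in which this library weighs most at promoters, and this favors its share. The comparisons of the genotypes are therefore also given after centring, in which the log2 signal of the median tested promoter was subtracted from each library. Of the lists of cell type markers, 13 of 16 enterocyte genes reached a mean signal of 2 over the 4 libraries, with Vil1, which encodes a microvillus protein, highest at 14.2. The 3 that did not, Rbp2, Anpep and Sis, reached 9.63, 10.8 and 5.83 at another annotated start. The same level was reached by 5 of 8 crypt genes, 1 of 12 secretory genes (Atoh1, 2.21) and none of the 12 immune, 10 mesenchymal, 4 endothelial and 9 striated muscle genes. Atoh1 reached it only through ApcMin/+ replicate 1 (4.63), with 1.94 in ApcMin/+ replicate 2 and 0.949 and 1.32 in wild type. At another annotated start the crypt gene Ascl2 reached 2.27 and the immune gene Coro1a 2.75. Summed over the immune genes, ApcMin/+ replicates 1 and 2 had signals of 17.3 and 11.9, above the 7.56 and 7.60 of wild type. The secretory genes had the same order, with 17.3 and 12.4 above 11.6 and 8.31, and no other marker list did. The mean over all promoters was also highest in ApcMin/+ replicate 1, so these sums do not measure the share of a cell type. The part of cell types in the differences described below was not tested. In scraped cells of mixed types, fewer cells with a marked promoter and less of the mark per cell cannot be told apart.

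The promoters of 9 members are shown to let the sequence be read beside the mark. Sdhd had the highest signal of all members. Ndufaf8 and Uqcr11 carry motifs close to the start, and Atp5k and Cox6a1 each carry an NRF1 match. Cox8a and Cox8b, and Cox7a2 and Cox7a1, are pairs of a common and a muscle isoform gene. Each sequence is taken from the RefSeq promoter table of GRCm38.p6, runs 5′ to 3′ on the strand of the gene, and covers the bases upstream of the start that lie outside annotated exons and at most 30 transcribed bases of exon 1. Capitals mark matches to CGCATGCG (NRF1), CCGGAAG (ETS family, including GABPA) and AAGATGGCG (YY1) on either strand, none of which overlap.
Sdhd (chr9:50603820-50603909, minus strand): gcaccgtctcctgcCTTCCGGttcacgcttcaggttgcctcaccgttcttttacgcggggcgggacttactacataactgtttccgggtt
Ndufaf8 (chr11:120098732-120098957, plus strand): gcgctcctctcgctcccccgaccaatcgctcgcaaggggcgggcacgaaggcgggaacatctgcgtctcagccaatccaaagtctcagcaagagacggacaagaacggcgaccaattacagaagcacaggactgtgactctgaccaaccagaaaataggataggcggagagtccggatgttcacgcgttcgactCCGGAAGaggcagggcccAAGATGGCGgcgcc
Uqcr11 (chr10:80406801-80407071, minus strand): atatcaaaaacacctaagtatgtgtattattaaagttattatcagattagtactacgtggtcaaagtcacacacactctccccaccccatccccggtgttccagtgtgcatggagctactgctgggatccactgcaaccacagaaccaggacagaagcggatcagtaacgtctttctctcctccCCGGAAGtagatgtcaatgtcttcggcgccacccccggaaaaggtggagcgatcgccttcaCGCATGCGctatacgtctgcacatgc
Atp5k (chr5:108434419-108434649, minus strand): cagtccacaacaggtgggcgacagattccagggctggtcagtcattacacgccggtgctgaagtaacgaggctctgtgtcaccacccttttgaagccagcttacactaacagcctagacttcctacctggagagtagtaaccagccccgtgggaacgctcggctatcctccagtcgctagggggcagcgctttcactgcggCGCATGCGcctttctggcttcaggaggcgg
Cox6a1 (chr5:115348952-115349129, minus strand): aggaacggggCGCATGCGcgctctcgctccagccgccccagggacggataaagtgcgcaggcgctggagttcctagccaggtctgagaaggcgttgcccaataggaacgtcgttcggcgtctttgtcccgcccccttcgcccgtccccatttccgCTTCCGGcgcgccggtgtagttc
Cox8a (chr19:7217587-7217866, minus strand): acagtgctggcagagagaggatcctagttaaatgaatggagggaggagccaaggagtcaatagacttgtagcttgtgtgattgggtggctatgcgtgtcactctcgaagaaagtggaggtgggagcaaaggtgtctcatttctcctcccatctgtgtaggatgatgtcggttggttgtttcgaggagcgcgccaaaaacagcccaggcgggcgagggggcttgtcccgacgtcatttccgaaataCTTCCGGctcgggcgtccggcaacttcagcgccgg
Cox8b (chr7:140900417-140900696, minus strand): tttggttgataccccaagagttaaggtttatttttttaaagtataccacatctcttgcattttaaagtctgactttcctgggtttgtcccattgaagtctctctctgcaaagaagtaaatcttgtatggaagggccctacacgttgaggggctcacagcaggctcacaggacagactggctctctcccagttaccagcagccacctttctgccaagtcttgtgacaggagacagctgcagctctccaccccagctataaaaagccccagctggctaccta
Cox7a2 (chr9:79759849-79760103, minus strand): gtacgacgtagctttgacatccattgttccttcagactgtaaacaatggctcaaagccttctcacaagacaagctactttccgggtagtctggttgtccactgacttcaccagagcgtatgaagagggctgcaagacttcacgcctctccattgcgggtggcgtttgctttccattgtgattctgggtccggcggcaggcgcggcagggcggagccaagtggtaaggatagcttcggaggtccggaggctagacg
Cox7a1 (chr7:30183921-30184173, plus strand): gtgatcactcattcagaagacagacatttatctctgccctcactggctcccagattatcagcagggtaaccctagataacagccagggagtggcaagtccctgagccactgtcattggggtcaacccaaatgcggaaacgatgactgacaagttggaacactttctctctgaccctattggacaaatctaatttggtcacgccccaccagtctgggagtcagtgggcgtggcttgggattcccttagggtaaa

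In Sdhd the ETS match begins 46 bp upstream of the RefSeq start, in the stretch between the 5′ ends of Sdhd and Timm8b. In Ndufaf8 the ETS match begins 8 bp upstream and the YY1 match 10 bp downstream of the start. In Uqcr11 the NRF1 match begins 5 bp and the ETS match 66 bp upstream. Annotated transcripts of Uqcr11, Atp5k and Cox6a1 start upstream of the RefSeq start, and the NRF1 matches of Uqcr11 and Atp5k and the ETS match of Cox6a1 lie in their exon 1. The 300 bases of the table hold 19 CpG dinucleotides in Cox8a and 2 in Cox8b, and 20 in Cox7a2 and 7 in Cox7a1.

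The respiratory chain genes stood high among promoters in every library. Ranked among all 21938 genes, the median member lay at percentile 84.2 in wild-type replicate 1, 87.4 in wild-type replicate 2, 86.9 in ApcMin/+ replicate 1 and 87.5 in ApcMin/+ replicate 2. All values below are given in this order of libraries. On the mean of the 4 libraries, 83 of the 94 lay above the median gene, 74 above the 75th percentile and 37 above the 90th percentile. Their mean signal was 5.90, 3.86, 18.6 and 5.13. The mean over all genes was 2.59, 1.76, 6.85 and 2.35, so the members were 2.18 to 2.71 times higher within a library. A mean signal of at least 2 was reached by 82 members, and these 82 were among the 9931 promoters that entered the test between genotypes. The lowest member inside this limit was Ndufaf6 with a mean of 2.53, and the highest outside it was Atp5g2 with 1.54. The median tested member stood 13.2 to 98.1 times above the signal of its library far from genes. It held 17 fragments in wild-type replicate 1, 40.9 and 145 in the next libraries and 60.8 in ApcMin/+ replicate 2, so counting alone gives errors of 24.3%, 15.6%, 8.29% and 12.8% for a gene of this level.

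**Figure D1:**
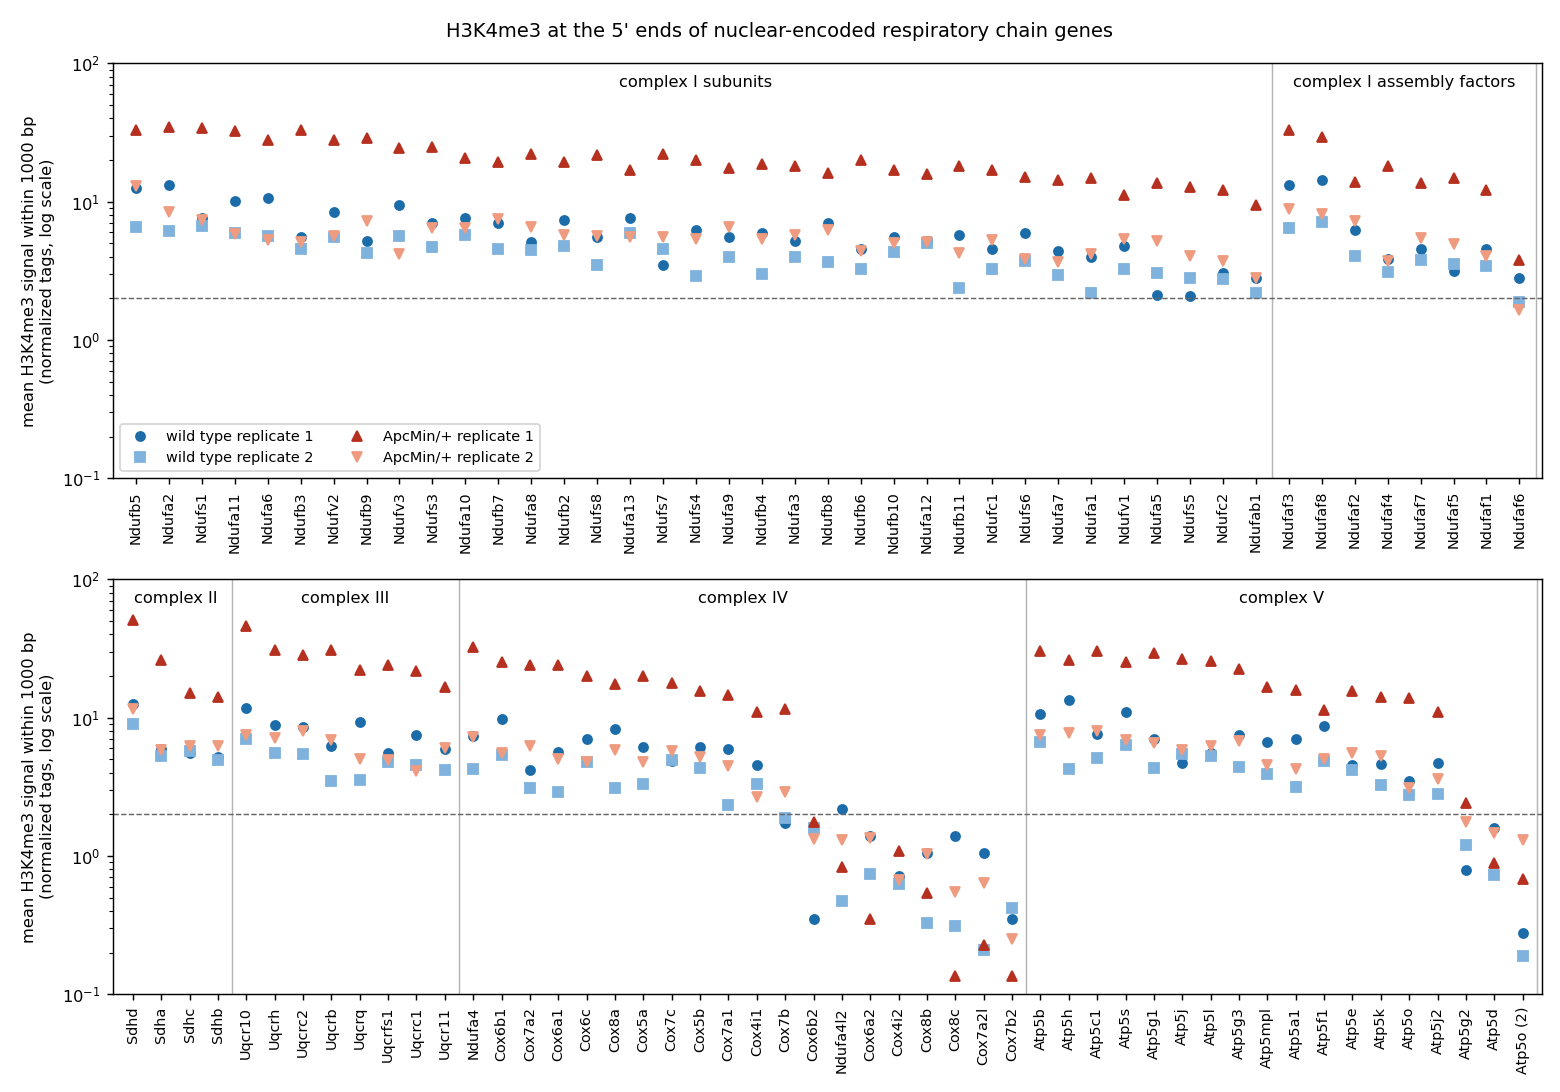
Mean H3K4me3 signal within 1000 bp of the 5′ end (log scale) of 93 of the 94 gene records, grouped by complex, with 1 symbol per library and the level of 2 as a dashed line. ApcMin/+ replicate 1 is highest for all 82 tested genes, and the genes under the line lie mostly in complex IV.

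Complex I, the NADH dehydrogenase, is the largest complex. Its 36 subunit genes had mean signals of 6.09, 4.14, 20.1 and 5.54, and 35 of them passed the level of 2. Ndufb5, an accessory subunit of the membrane arm on chromosome 3, was highest, with 12.6, 6.57, 32.9 and 13.03 in the 4 libraries. Ndufa2, an accessory subunit of the matrix arm on chromosome 18, followed with 13.3, 6.14, 34.5 and 8.39. Both were high in all libraries and lay at the 99.6th and 99.5th percentile.

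The 8 assembly factors of complex I named Ndufaf all passed, with mean signals of 6.58, 4.18, 17.3 and 5.53. Ndufaf3 was highest with 13.3, 6.50, 32.9 and 8.93, and Ndufaf8 followed with 14.3, 7.12, 29.2 and 8.12. Ndufaf6 was the lowest of all tested members with 2.79, 1.89, 3.79 and 1.64, and held 8 fragments in wild-type replicate 1. It lay at the 57.4th percentile of all genes, whereas Ndufaf3 lay at the 99.4th.

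Complex II, succinate dehydrogenase, is also an enzyme of the tricarboxylic acid cycle, and all of its 4 subunits are nuclear. All 4 passed, with mean signals of 7.33, 6.23, 26.5 and 7.45. Sdhd, a membrane anchor on chromosome 9 (50596357 to 50603812, minus strand), had 12.6, 8.94, 50.4 and 11.5, which placed it at the 99.96th percentile of all genes. Sdha, the flavoprotein subunit, had 5.93, 5.32, 26.1 and 5.79. Sdhb, the iron-sulfur subunit, was lowest with 5.22, 4.97, 14.2 and 6.28. Sdhd exceeded the other 3 subunits in each library.

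Complex III, the cytochrome bc1 complex, had the highest mean of the 5 complexes in wild-type replicate 1 and ApcMin/+ replicate 1, with 7.95, 4.81, 27.5 and 6.20 over its 8 members. Uqcr10, a small subunit, led with 11.7, 6.96, 46.1 and 7.46. Uqcrh, the hinge protein, had 8.81, 5.52, 30.7 and 7.18. Even the lowest of the 8, Uqcr11, had 5.94, 4.21, 16.6 and 6.04, above the median tested promoter of each library (4.53, 3.06, 13.2 and 4.18). Cyc1, a nuclear complex III subunit outside the name rule, had 5.57, 3.30, 12.3 and 5.80. No gene of complexes II and III failed the level of 2.

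Complex IV, cytochrome c oxidase, was the exception. Only 12 of its 20 members passed, and the mean signals of the 20 were 4.003, 2.42, 11.9 and 3.37. Its 12 genes without a tissue-restricted role had 5.56, 3.46, 18.3 and 4.71. Ndufa4, once counted as a complex I subunit and since placed in complex IV, was highest with 7.32, 4.27, 32.5 and 7.25. Cox6b1, a subunit of the outer face, followed with 9.77, 5.40, 25.4 and 5.54. Cox7b2 was lowest of all 94 members with 0.349, 0.418, 0.135 and 0.251, which stands for 1 fragment each in wild-type replicate 1 and ApcMin/+ replicate 1.

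Complex V, the ATP synthase, had 15 of 18 members past the level, with mean signals of 6.11, 3.83, 17.7 and 5.08. Atp5b, the catalytic beta subunit, led with 10.7, 6.68, 30.2 and 7.48, and Atp5h, a subunit of the peripheral stalk, followed with 13.4, 4.27, 26.1 and 7.74. The lowest was the Atp5o record ENSMUSG00000116933.1, with 0.275, 0.189, 0.675 and 1.29. It holds 1 readthrough transcript that starts inside the other Atp5o record. That record, ENSMUSG00000022956.11, had 3.49, 2.77, 13.8 and 3.11 at its own 5′ end.

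The order of the members was partly shared between libraries. Over the 82 tested members, Spearman's rho between pairs of libraries was 0.616 to 0.701, against 0.729 to 0.817 over all 9931 tested promoters, which span a wider range of levels. These are descriptions across genes, and libraries of different depth share the sequence of each promoter. The coefficient of variation among the tested members was 42.3%, 31.7%, 38.6% and 30.9%, and among all tested promoters 63.2%, 62.0%, 54.4% and 47.4%.

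The 12 members with a mean signal under 2 fell into 2 kinds. Of these, 7 are isoform genes reserved for other tissues or conditions, and 5 are common genes. In the pairs of isoform genes, the common gene had more signal than the restricted gene in all 4 libraries in 7 of 8 pairs. Cox6a1 had 5.64, 2.88, 23.9 and 4.99, whereas Cox6a2, its counterpart in heart and skeletal muscle, had 1.39, 0.745, 0.350 and 1.35. Cox8a had 8.22, 3.09, 17.4 and 5.79, whereas Cox8b, the muscle form, had 1.05, 0.329, 0.540 and 1.04, and Cox8c, the testis form, had 1.40, 0.314, 0.135 and 0.548. In ApcMin/+ replicate 1, the library with the lowest signal outside enriched regions, Cox8c held 1 fragment and Cox8b 4.

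The same held for the forms of lung, testis and hypoxia. Cox4i1 had 4.53, 3.32, 10.98 and 2.67, and Cox4i2, the lung form, had 0.711, 0.627, 1.08 and 0.666. Cox6b1 was described above, and Cox6b2, the testis form, had 0.349, 1.60, 1.75 and 1.32. Cox7b had 1.74, 1.90, 11.6 and 2.92, and Cox7b2, also a testis form, is the lowest member. Ndufa4 was described above, and Ndufa4l2, a gene induced by hypoxia, had 2.18, 0.473, 0.837 and 1.31. The restricted genes of these 7 pairs held 1 to 15.3 fragments per library, so the order among them cannot be read.

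Cox7a1 was the exception among the isoform genes. It encodes the heart and skeletal muscle form of subunit 7a and lies on chromosome 7 (30184144 to 30186078, plus strand). It had 5.93, 2.32, 14.5 and 4.45, at the 80.2nd percentile, against 4.19, 3.12, 24.0 and 6.28 for Cox7a2. Cox7a1 was the higher of this pair in wild-type replicate 1 and the lower in the other 3 libraries. Its mark rested on 17 to 107 fragments per library and formed an enriched region of 2200 bp, and no other annotated 5′ end lies within 1000 bp. The 9 striated muscle genes (Ckm, Acta1, Actn2, Myh6, Myh7, Tnnt2, Tnnt3, Mb and Ryr1) were all under 2, with list means of 0.572, 0.624, 0.492 and 1.00, in the range of the muscle forms Cox6a2 and Cox8b. The promoter of Cox7a1 shown above has a ratio of observed to expected CpG of 0.333 and that of Cox8b 0.115, and both lie under the 0.833 of Cox7a2 and 0.842 of Cox8a.

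**Figure D2:**
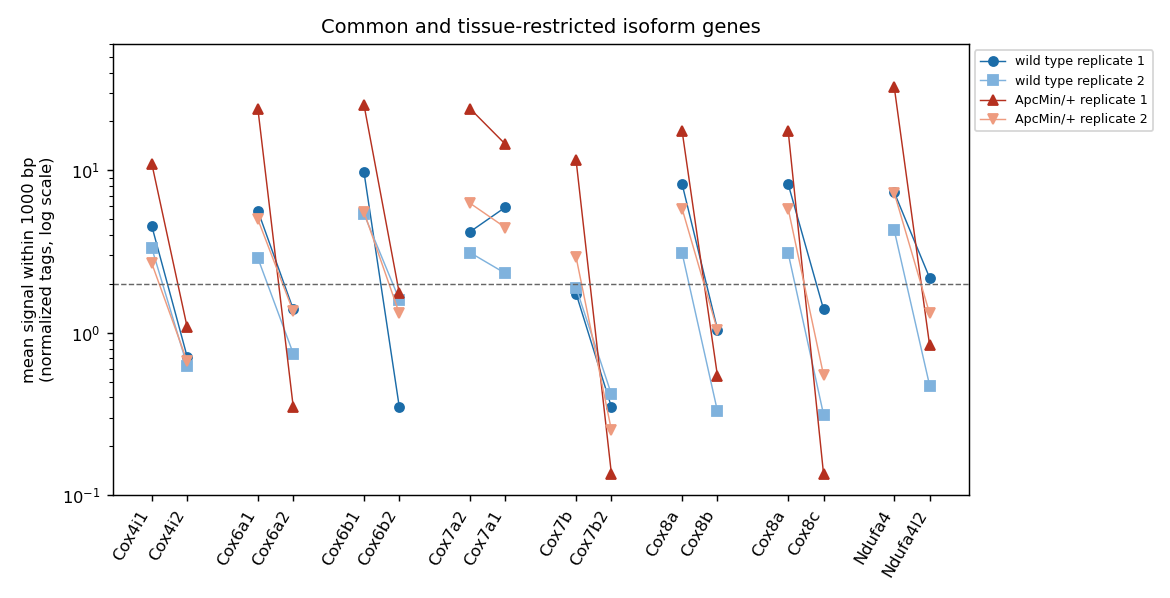
Mean H3K4me3 signal within 1000 bp of the 5′ end (log scale) of 8 pairs of a common (left) and a tissue-restricted or hypoxic (right) isoform gene, with 1 line per library and the level of 2 as a dashed line. The lines fall in 7 pairs, whereas Cox7a1 lies between 2.32 and 14.5.

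Among the 5 common genes under 2 were Cox7a2l, Atp5d, Atp5g2 and the readthrough record of Atp5o. In all of the 5 except that record, the most upstream annotated transcript starts at a place without the mark, and another annotated start of the gene carries it. Cox7a2l, which promotes the assembly of supercomplexes, had 1.05, 0.209, 0.226 and 0.640 at its 5′ end and 5.93, 5.10, 28.8 and 7.66 at a start 3000 bp downstream (position 83514330 of chromosome 17). Atp5d, the delta subunit of complex V, had 1.58, 0.732, 0.888 and 1.46 at its 5′ end and 9.01, 5.22, 18.4 and 6.55 at a start 3683 bp downstream (position 80142315 of chromosome 10). Atp5g2 had 0.785, 1.21, 2.41 and 1.77 at its 5′ end and 6.63, 5.54, 14.9 and 5.48 at a start 1225 bp downstream (position 102671127 of chromosome 15). These starts were chosen as the highest of the gene, so their height is a description. With the highest start of each gene in place of the most upstream, 86 of 94 members reached 2, and the 8 others were the 7 restricted isoforms and the Atp5o readthrough record.

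Atp5g2 belongs to a set of 3 genes, Atp5g1, Atp5g2 and Atp5g3, that encode the same mature c subunit of the ATP synthase rotor with different targeting peptides. Atp5g1 had 6.99, 4.29, 29.5 and 6.56, and Atp5g3 had 7.53, 4.42, 22.6 and 6.82. All 3 genes were thus marked in every library once the marked start of Atp5g2 was used, and their levels overlapped.

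The X chromosome carries 3 members, and the sex of the animals was not used here. Ndufb11 had 5.78, 2.37, 18.1 and 4.24, Ndufa1 had 3.95, 2.18, 14.8 and 4.16, and Cox7b had 1.74, 1.90, 11.6 and 2.92. Cox7b was the lowest tested member of complex IV, and it reached the level of 2 only through the ApcMin/+ libraries.

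Many members share their promoter region with a neighbor. A gene transcribed in the opposite direction starts within 1000 bp upstream of 23 of the 94 members (24.5%), against 1489 of all 21938 genes (6.79%). Among promoters past the level of 2, the shares were 28.0% of 82 members and 13.7% of 9931. The distance between the paired 5′ ends was 10 to 336 bp, with a median of 99 bp. Ndufa7 starts 10 bp from the ribosomal protein gene Rps28, Ndufb9 18 bp from Tatdn1, Sdha 29 bp from Ccdc127, and Sdhd 98 bp from Timm8b, a chaperone gene of mitochondrial import. Both highest members of complexes II and III, Sdhd and Uqcr10, belong to such pairs. The highest complex I subunit gene, Ndufb5, and the highest assembly factor gene, Ndufaf3, do not. The 5′ end of another protein-coding gene, Mrpl47, does lie within 1000 bp of that of Ndufb5. Counted on either side and strand, 35 of the 94 members (37.2%) had another protein-coding 5′ end that near, beside 12.6% of all genes. The median of the 4-library mean was 10.9 for the 23 members with a divergent neighbor and 8.33 for the 48 tested members with no other protein-coding 5′ end within 1000 bp. Among all tested promoters these medians were 8.89 and 5.76. Fragments of a shared promoter cannot be assigned to either gene.

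The profile of the mark around the 5′ end differed between these kinds of promoter. In members without another protein-coding 5′ end the signal was highest 160 to 179 bp downstream of the start in all 4 libraries, with 17.6, 10.6, 46.3 and 13.5 in a 20-bp bin. The median share of the signal that lay upstream, out of that within 1000 bp, was 18.3%, 22.2%, 16.9% and 22.1%. Over the 7583 tested promoters of that kind it was 26.9%, 30.7%, 25.5% and 30.9%, higher in each library. In the 23 members with a divergent neighbor the median upstream share was 44.0%, 42.0%, 39.4% and 47.5%, against 55.2%, 53.1%, 53.0% and 54.0% over the 1356 such promoters in all. Among promoters without another protein-coding 5′ end, the mark thus lay more downstream in the members than at large, in all 4 libraries. The share was also lower in the members with a divergent neighbor, but that comparison is limited. The 1356 promoters can hold both genes of a pair, which pulls their share towards equal sides. Their paired 5′ ends lie up to 987 bp apart, against 336 bp in the members. An enriched region covered the 5′ end of 88 of 94 members (93.6%) and of 55.9% of all genes, with a median width of 2200 bp against 1800 bp.

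**Figure D3:**
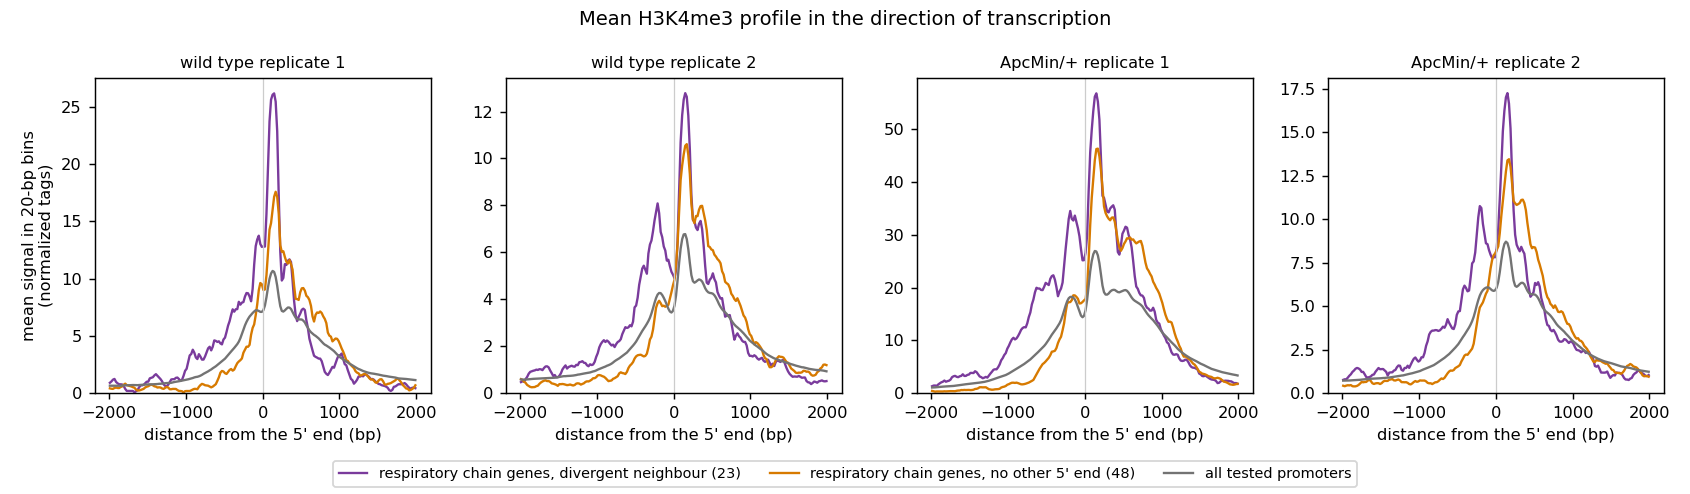
Mean H3K4me3 signal in 20-bp bins against distance from the 5′ end (bp, positive in the direction of transcription), with 1 panel per library and its own vertical scale. Respiratory chain genes with no other 5′ end peak 160 to 179 bp downstream and stay low upstream, whereas those with a divergent neighbor have a further maximum upstream.

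Motifs of the factors known from this gene set were counted in the RefSeq promoters, which run from 250 bp before to 50 bp after a start. A promoter within 200 bp of the marked start was found for 70 members, of which 67 reached a mean signal of 2 at that start. CGCATGCG, the palindromic core of the NRF1 site, was present in 10 of the 67 (14.9%), against 4.82% of the 7494 promoters of all genes marked in the same way and 1.87% of all 32851 promoters of the table. The 10 genes were Ndufaf4, Ndufaf5, Ndufa11, Ndufa8, Uqcrc1, Uqcr11, Cox6a1, Atp5l, Atp5k and Atp5g2. AAGATGGCG, the letters of the YY1 site, was present in 7 of the 67 (10.4%), against 4.12% and 1.40%. These were Ndufaf8, Ndufs7, Ndufs4, Ndufa9, Ndufc1, Ndufs6 and Atp5j2, of which 5 are subunits of complex I. CCGGAAG, which ETS factors such as GABPA bind, was present in 17 (25.4%), close to the 22.4% of all marked promoters. GGGGCGGGG of the SP family was present in 9 (13.4%), against 24.2% of all marked promoters. TCAAGGTCA of the estrogen-related receptors was present in 2 (2.99%), Sdhd and Atp5g3, against 0.227%.

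No test was made of these shares, and a match is not a bound site. The median signal of the 10 members with CGCATGCG was 5.61, 4.34, 19.9 and 5.40, against 5.93, 4.24, 19.4 and 5.68 for the 57 without it. The members marked at their start had a median GC content of 58.7% and a ratio of observed to expected CpG of 0.833, against 62.0% and 0.806 for all marked promoters. The 3 unmarked members with a promoter in the table, Cox6b2, Cox8b and Cox7b2, had ratios of 0.115 to 0.564.

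**Figure D4:**
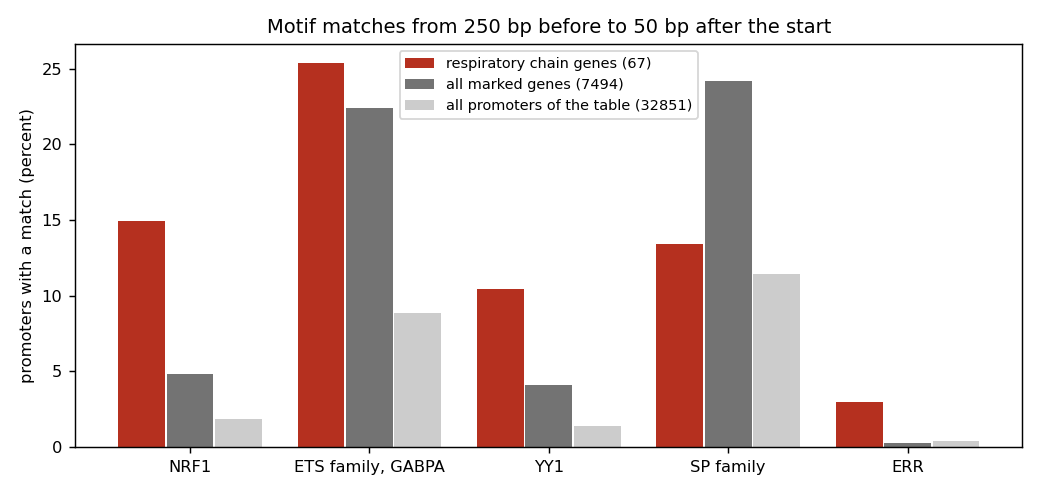
Percent of promoters with a match to each of 5 motifs on either strand, for the 67 marked respiratory chain genes with a matched promoter, all 7494 marked genes and all 32851 promoters of the table. The bars of the respiratory chain genes exceed those of all marked genes for NRF1, YY1 and ERR and lie under them for the SP family.

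Averaged over the members, the wild-type libraries had a signal of 4.88 ± 1.44 (SD, n = 2). The ApcMin/+ libraries had 11.9 ± 9.51 (SD, n = 2). The log2 ratio of these means was 1.28 and the same ratio over all genes was 1.08. ApcMin/+ replicate 1 was the highest library for all 82 tested members, as it was for 98.6% of all tested promoters. ApcMin/+ replicate 2 lay above both wild-type libraries for 29 of the 82, between them for 45 and below both for 8. Without ApcMin/+ replicate 1 the ratio over the members fell from 1.28 to 0.07, and over all genes to 0.11.

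No respiratory chain promoter passed the test between the genotypes. In limma with Benjamini-Hochberg adjustment over 9931 promoters, 0 of 82 members passed 0.05, where the share of all promoters called was 0%. Among members the smallest adjusted p was 0.683. Before adjustment 0 of 82 members and 131 of all promoters were under 0.05. The log2 differences of the members were 0.10 to 1.55, with standard errors of 0.67 to 1.26 and a median of 0.95, beside a median of 0.85 over all tested promoters. Both ApcMin/+ libraries lay above both wild-type libraries in 29 members (35.4%), near the 38.5% of all tested promoters, and below both in 0 members, where the share of all was 0.161%. A promoter can enter the test through high ApcMin/+ libraries alone, as Cox7b did, and this favors the higher counts. They are therefore not support for a difference. The median log2 differences by role were 1.02 for complex I subunits, 0.85 for complex I assembly factors, 0.91 for complex II, 0.99 for complex III, 0.94 for complex IV and 0.92 for complex V. After the centring described next, they were 0.17, -0.0067, 0.058, 0.13, 0.082 and 0.070 in the same order.

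After centring on the median promoter, which lowers all differences by 0.85, the members spread on both sides of zero. The difference was above 0 in 51 of 82 members, beside 4850 of all 9931 tested promoters. Before centring it had been above 0 in all 82 members and in 9850 of the 9931. The median was 0.09 beside -0.01 over all tested promoters. Groups did not overlap in 17 members that were higher (20.7%, beside 13.1% of all) and 9 that were lower (10.98%, beside 14.3% of all). Again 0 of 82 passed limma with adjustment, where 12 of all promoters did (0.121%), with a smallest adjusted p among members of 1.00. Before adjustment 4 of the 82 were under 0.05, as were 294 of all tested promoters (2.96%). The standard errors fell to 0.28 to 0.49. Without ApcMin/+ replicate 2 and without centring, 47 of 82 members were called higher (57.3%, beside 65.2% of all tested promoters), a lone ApcMin/+ library then being compared that is high at nearly all promoters.

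Named here are the 3 members with the largest centred difference in each direction among those whose groups did not overlap. Cox7a2, the common form of subunit 7a, had 4.19 and 3.12 in wild-type and 24.0 and 6.28 in ApcMin/+ libraries, a log2 difference of 1.55 ± 1.15 (SE) as deposited and 0.69 ± 0.28 after centring. Uqcrb, a subunit of complex III, had 6.28 and 3.51 against 30.7 and 6.85, a difference of 1.46 as deposited and 0.61 centred. Ndufb9, an accessory subunit of complex I, had 5.23 and 4.28 against 28.7 and 7.26, a difference of 1.45 as deposited and 0.60 centred. In the other direction, Ndufaf6 had 2.79 and 1.89 against 3.79 and 1.64, a difference of 0.10 as deposited and -0.75 centred. Atp5f1, the b subunit of the ATP synthase, had 8.78 and 4.84 against 11.4 and 5.00, a difference of 0.19 as deposited and -0.66 centred. Cox4i1 had 4.53 and 3.32 against 10.98 and 2.67, a difference of 0.44 as deposited and -0.41 centred. For the last 3 genes the sign depends on the scaling, and none of the 6 passed the adjusted threshold on either scale.

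**Figure D5:**
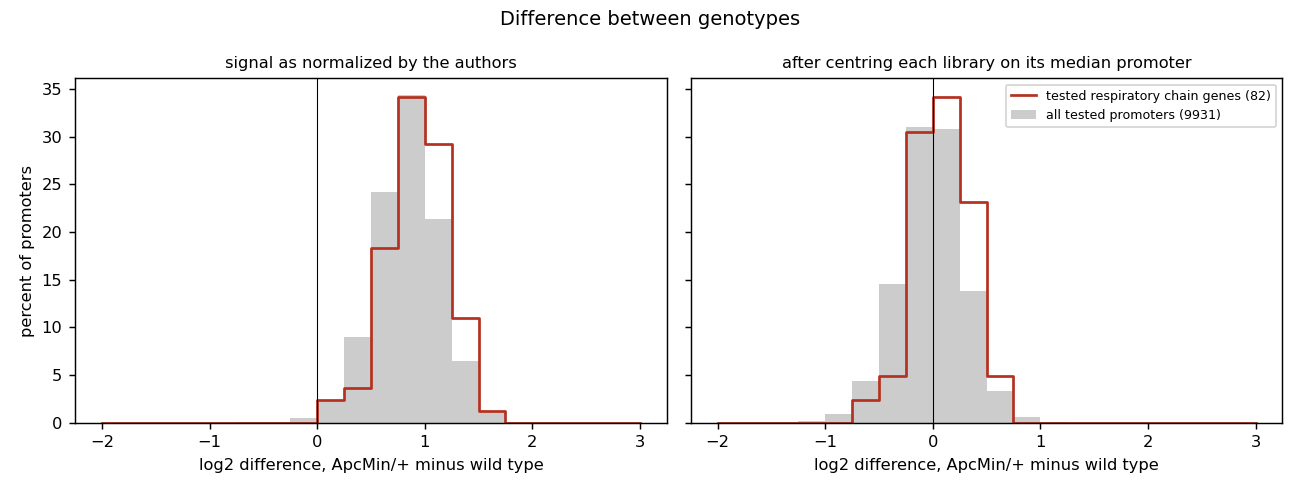
Percent of promoters by log2 difference (ApcMin/+ minus wild type, bins of 0.25) for all 9931 tested promoters (bars) and the 82 tested respiratory chain genes (line), with the signal as normalized by the authors (left) and after centring each library on its median promoter (right). Both distributions sit above 0 on the left, with medians of 0.85 and 0.95, and around 0 on the right.

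Other genes of mitochondrial respiration were counted from lists by role. All 13 genes of the tricarboxylic acid cycle passed the level of 2, with Sucla2 lowest at 3.09, and 0 of 13 passed limma with adjustment. Of 31 assembly factors outside the name rule 28 passed the level, with Cox20 highest at 17.2 and Cox19 lowest at 0.958, and 0 of 28 passed limma. Sdhaf4, an assembly factor of complex II, was the only gene of these lists with an unadjusted limma p under 0.05 and is named after its value was seen. Of all tested promoters, 1.32% were under that limit. Sdhaf4 had 1.40 and 1.47 in wild-type and 14.0 and 2.58 in ApcMin/+ libraries, with an adjusted p of 0.683 in limma. It thus reached the level of 2 only through the ApcMin/+ libraries, so its unadjusted p is not support for a difference. Of 9 carriers of electrons and adenine nucleotides 7 passed the level, with cytochrome c (Cycs) highest at 14.6 and Vdac2 lowest at 1.08, and 0 of 7 passed limma. Vdac2 and Cox19 reached 15.7 and 6.52 at another annotated start. Of 17 regulators of mitochondrial biogenesis 16 passed the level, led by Gabpa at 13.1, and 0 of 16 passed limma. The exception was the coactivator gene Ppargc1a at 0.776, which reached 6.79 at another annotated start. The median log2 differences of the 4 lists were 0.93, 1.01, 0.84 and 0.78, beside 0.85 over all tested promoters. After centring they were 0.076, 0.16, -0.014 and -0.075, beside -0.01 over all tested promoters, and again 0 genes of each list passed limma.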

How the data were processed

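H3K4me3 CUT&RUN was done on cells scraped from intestinal villi, in 2 wild-type and 2 ApcMin/+ libraries grouped by their titles. The authors trimmed the reads, aligned them to mm10 with Bowtie2, removed duplicates with Picard and reads of low mapping quality, and deposited HOMER coverage signal normalized to 10000000 tags per library. No control was subtracted and replicates were not pooled. The deposited signal is not a count, so no count model was used. The H3K9me3, H3, no-antibody, RNA and 12-week libraries were not analysed here.

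The mean signal within 1000 bp of the most upstream annotated start (GENCODE M21) was computed for each protein-coding gene. Promoters with a mean of at least 2 over the 4 libraries were compared with limma 3.58.1 with a trend, under R 4.3.3. The values were log2(signal + 1), and p-values were adjusted over 9931 promoters by the Benjamini-Hochberg method with a threshold of 0.05. Differences are on this scale, which understates changes of low genes. Fragments were estimated from signal and library size, and counting errors cover counting only. Enriched regions were 100-bp bins in which the mean of the 4 tracks was at least 5 times its genome mean, joined over gaps of up to 500 bp and at least 300 bp wide. Background was measured outside these, more than 5000 bp from 5′ ends. Other steps ran in Python 3.11.15 with scipy 1.17.1, pandas 2.3.3 and numpy 2.4.6. The limma step was run on simulated data as a check of the code. Recovery of changed promoters was not required there for uncentred data with ApcMin/+ replicate 1 raised. The check therefore does not show which differences the uncentred test can find here.

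The members and lists were chosen with earlier results of these data known. Named genes are the 2 highest and the lowest of each role, members under the level of 2, isoform pairs, X-linked members and the 3 largest non-overlapping centred differences in each direction, and in other lists the highest and lowest. Other genes named were chosen after their values were seen. Scaling, window, start, pseudocount, filter, replicate block and leaving out each library were varied. Values of 2 genes that the rule for named genes selects are not reported here.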

Additional observations from a re-analysis of the deposited data

Results flagged for a closer look

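The mitochondrial chromosome encodes the subunits of the respiratory chain that are not nuclear and carries no histones, and no comparison of the report uses it. Its mean signal over 16299 bp was 13.7 in wild-type replicate 1, 31.7 in wild-type replicate 2, 44.4 in ApcMin/+ replicate 1 and 30.8 in ApcMin/+ replicate 2. It is given here because it lay 48.5, 97.9, 222 and 102 times above the background of these libraries in the nuclear genome. The signal stands for about 319, 2473, 2677 and 2748 fragments, or 0.0223% to 0.0723% of the signal of a library. ApcMin/+ replicate 1, the highest library at the nuclear respiratory chain promoters, was highest here too, and wild-type replicate 1, the library with the fewest tags, was lowest. No-antibody libraries were not analysed here, so the level without the antibody was not measured.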

How the results depend on the processing

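With 2 libraries a group and ApcMin/+ replicate 1 apart, the size of the genotype difference depended on scaling and on that library. The log2 ratio of member means (1.28) was 0.041 after centring, 0.068 after quantile normalization and 0.071 to 1.93 with each library left out. With each library divided by its background signal it rose to 1.74. Centred, it was 0.064 and 0.018 without wild-type replicate 1 and 2, -0.062 without ApcMin/+ replicate 1 and 0.14 without ApcMin/+ replicate 2. The median difference of 0.95 became 0.09 after centring, 0.13 to 1.74 with each library left out and 0.00136 to 0.16 with both. After division by background it was 1.22, beside 1.11 over all tested promoters. The count of members past limma was 0 under every alternative except without ApcMin/+ replicate 2, where it was 47, a range of 0 to 47. Members with the ApcMin/+ libraries higher (29) numbered 17 after centring (20.7%, beside 13.1% of all tested promoters), 19 after quantile normalization (23.2%, beside 14.8%) and 29 to 82 with each library left out. After division by background they numbered 23 (28.05%, beside 34.25%). They numbered 74 without wild-type replicate 1 (90.2%, beside 87.5%) and 82 without ApcMin/+ replicate 2 (100%, beside 98.9%). Centred without wild-type replicates 1 and 2 and ApcMin/+ replicates 1 and 2 in turn, the shares were 40.2%, 37.8%, 29.3% and 52.4%, beside 29.0%, 33.6%, 28.8% and 32.8%, for counts of 24 to 43. Members with the ApcMin/+ libraries lower (0) numbered 9 after centring (10.98%, beside 14.3%), 16 after quantile normalization (19.5%, beside 16.0%), 1 without the filter (Cox7b2, 1.06%, beside 7.19%) and 0 to 8 with each library left out, 8 being without ApcMin/+ replicate 1 (9.76%, beside 9.12%). Centred in that order they numbered 17, 24, 30 and 14 (20.7%, 29.3%, 36.6% and 17.1%, beside 31.4%, 34.4%, 29.99% and 34.8%). The median percentile of 86.8 was 84.6 with windows of 2000 bp and 86.4 to 87.3 with each library left out. The cause of these changes was not tested.

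After centring 51 of 82 members stayed above 0, beside 4850 of all 9931 tested promoters. Of the 6 genes named for their centred difference, 3 reversed. Ndufaf6 (0.10) was -0.75 after centring, with or without the replicate block, -0.66 after quantile normalization, -0.021 with windows of 500 bp and -0.32 to 0.53 with each library left out. Centred without wild-type replicates 1 and 2 and ApcMin/+ replicates 1 and 2 in turn, it was -0.78, -0.72, -0.45 and -1.05. Atp5f1 (0.19) was -0.66 after centring, with or without the block, -0.63 after quantile normalization, -0.33 to 0.72 with each library left out and, centred in that order, -0.51, -0.81, -0.46 and -0.86. Cox4i1 (0.44) was -0.41 after centring, with or without the block, -0.46 after quantile normalization, -0.41 to 1.29 with each library left out and, centred in that order, -0.46, -0.37, -0.54 and -0.29. Without ApcMin/+ replicate 2 the differences of Cox7a2, Uqcrb, Ndufb9 and Cox4i1 were 2.44, 2.47, 2.37 and 1.29. The median over all tested promoters was then 1.58. Ndufaf6 has no value with a filter of 5 or windows of 2000 bp, where it fell under the filter.

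Libraries of the 2 genotypes share replicate numbers and the labels state no pairing. The deviations of same-numbered libraries correlated at 0.196, a value from 1 contrast. With the replicate block 0 members passed (smallest adjusted p of limma 0.533), and 0 with the block and centring. At the median member, counting error in wild-type replicate 1 (24.3%) limits what can be resolved for single genes.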
